A study of Mus musculus with 9 samples.

Results

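The genes described here were 9 regulators and enzymes of hepatic fatty acid synthesis whose transcription is driven by insulin: Srebf1, Mlxipl, Thrsp, Acly, Acaca, Acacb, Fasn, Me1 and Pnpla3. They were taken by name, as the probe sets annotated with exactly 1 of these symbols, and averaged per symbol, so that they made up 9 of the 19938 genes measured on the arrays. Whole liver RNA was hybridised to Affymetrix Mouse Gene 1.0 ST arrays, and 3 groups of 3 arrays were compared, 9 arrays in all. The OB-TUDCA group was made up of male ob/ob mice, which lack functional leptin on the C57BL/6J background (strain B6.V-Lepob/J in the labels), given 500 mg/kg of the bile acid conjugate TUDCA by gastric gavage 2 times a day for 3 weeks. The OB-control group was made up of ob/ob mice given tap water by the same route and schedule, and the N-control group of C57BL/6J littermates given tap water likewise. All 3 groups ate normal chow and were killed after 8 h of fasting. The methods describe 6 mice per group bought at 6 weeks of age, of which the arrays cover 3. The ob/ob mouse is a model of obesity by a single inherited lesion, so every contrast with N-control carries the loss of leptin and all that follows it together. Each p-value below measures the spread between these arrays. The liver was not separated into cell types, and in such bulk RNA fewer cells of a type and less RNA per cell cannot be told apart.

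Fatty acid synthesis in the liver turns surplus carbohydrate into fat. Insulin raises the sterol regulatory element binding protein encoded by Srebf1, glucose activates the carbohydrate response element binding protein encoded by Mlxipl, and both factors switch on a shared set of enzyme genes in the fed state, which is lowered on fasting. Acly makes cytosolic acetyl-CoA from citrate, Acaca and Acacb carboxylate it to malonyl-CoA, Fasn builds palmitate from both, and Me1 supplies NADPH. Thrsp encodes a small lipogenic protein that responds to thyroid hormone and carbohydrate, and Pnpla3 encodes a lipid droplet protein that is a target of both factors.

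The 4 genes Thrsp, Acly, Acaca and Fasn, whose 6 pairs all had r of at least 0.866 over the arrays, were picked out for display after their correlations were seen. Their promoters are shown because genes that move together may be read side by side for shared sequence. Each run below is the 300 bases from 250 before to 50 after a transcription start in the RefSeq promoter table on build GRCm38.p6, 5′ to 3′ on the strand of the gene. Capitals mark a match to the CCAAT box (CCAAT), the GC box (GGGCGG), the E-box (CACGTG) or a sterol response element (TCACNCCAC) on either strand. Thrsp lies on the minus strand at chr7:97417501-97417800, Acly on the minus strand at chr11:100527951-100528250, Acaca on the plus strand at chr11:84195188-84195487 and Fasn on the minus strand at chr11:120824498-120824797. The windows of Acaca and Fasn lie inside the annotated genes, whose outermost starts are at base 84129635 (Acaca) and base 120825166 (Fasn), so both belong to downstream starts.
Thrsp: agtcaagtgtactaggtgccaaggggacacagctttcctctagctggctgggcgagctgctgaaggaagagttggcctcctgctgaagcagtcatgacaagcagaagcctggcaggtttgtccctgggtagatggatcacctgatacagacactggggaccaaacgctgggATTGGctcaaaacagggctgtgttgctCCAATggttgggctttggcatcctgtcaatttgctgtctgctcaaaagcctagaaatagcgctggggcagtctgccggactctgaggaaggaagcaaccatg
Acly: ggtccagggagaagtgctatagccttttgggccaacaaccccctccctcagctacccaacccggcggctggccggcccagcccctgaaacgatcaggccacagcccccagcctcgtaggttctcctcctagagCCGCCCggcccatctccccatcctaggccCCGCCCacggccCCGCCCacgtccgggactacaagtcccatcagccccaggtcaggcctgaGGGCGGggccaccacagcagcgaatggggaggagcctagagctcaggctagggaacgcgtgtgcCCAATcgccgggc
Acaca: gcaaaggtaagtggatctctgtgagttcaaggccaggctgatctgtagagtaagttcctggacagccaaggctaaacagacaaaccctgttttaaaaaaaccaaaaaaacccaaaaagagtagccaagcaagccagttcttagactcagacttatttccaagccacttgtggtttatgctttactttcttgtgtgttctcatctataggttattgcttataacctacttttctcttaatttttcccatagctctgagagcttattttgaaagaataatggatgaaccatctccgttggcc
Fasn: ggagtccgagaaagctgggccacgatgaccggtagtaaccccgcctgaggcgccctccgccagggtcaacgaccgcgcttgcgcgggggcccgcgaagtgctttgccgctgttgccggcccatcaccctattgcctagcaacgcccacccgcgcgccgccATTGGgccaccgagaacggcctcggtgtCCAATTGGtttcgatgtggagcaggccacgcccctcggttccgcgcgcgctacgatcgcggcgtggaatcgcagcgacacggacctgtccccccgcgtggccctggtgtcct
The Fasn window held 3 CCAAT boxes, 2 of them overlapping on opposite strands, the Thrsp window held 2, and the Acly window held 1 beside 4 GC boxes. The Acaca window held no match to any of the 4 motifs. Over the 13 promoter entries of the 9 genes, all of which matched the table, 9 held a CCAAT box, 6 a GC box, 1 an E-box and 1 a sterol response element, the last 2 both in windows of Mlxipl. Of all 32851 mouse promoters of that length, 37.4% held a CCAAT box, 35.7% a GC box, 7.15% an E-box and 1.24% a sterol response element. These matches describe letters in 1 window per start and nothing more.

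Pooled over the 3 groups, 8 of the 9 genes differed more between mice of 1 group than 95% of genes did. The pooled within-group SD of log2 signal was 1.12 for Thrsp, 0.908 for Fasn, 0.859 for Acacb, 0.854 for Acaca, 0.842 for Acly and 0.664 for Me1, against a median of 0.137 over all genes. Only 35 of the 19938 genes had a larger pooled SD than Thrsp. Srebf1 (0.522) and Mlxipl (0.317) varied less than the enzymes, and Pnpla3 (0.234) the least. In all, 8 of the 9 members lay above the 95th percentile of all genes (0.310) and 6 above the 99th (0.560), a description with no test. Within single groups a high spread was less general. In OB-TUDCA, Me1 and Pnpla3, with an SD of 0.0695 and 0.109, lay below the median of all genes in that group (0.122). Acacb (0.195) lay at percentile 75.4 there. Mlxipl lay at percentile 93.7 in OB-control and 75.3 in N-control, and Pnpla3 at 93.2 and 88.5. The part of a gene's variation that lay between the groups had a median of 14.04% over the members, against 32.2% over all genes. For Thrsp and the enzymes it ran from 2.88% (Me1) to 17.0% (Acly). Srebf1 (50.0%), Pnpla3 (46.4%) and Mlxipl (40.8%) lay above the median of all genes.

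**Figure D1:**
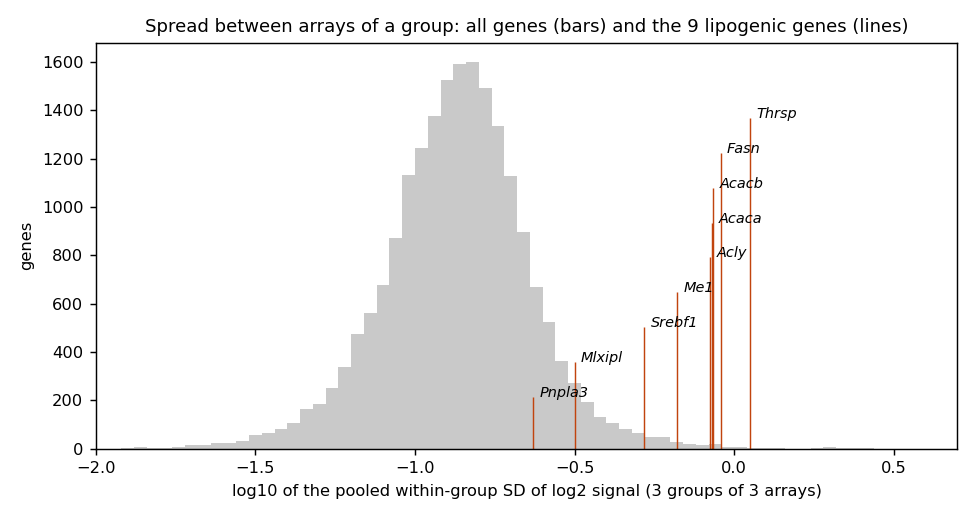
Pooled within-group SD of log2 signal (x axis, log10 scale, from 3 groups of 3 arrays) against the number of genes (y axis). Grey bars count all genes with an SD of at least 0.01, and lines, whose height has no meaning, mark the 9 lipogenic genes, of which Thrsp stands farthest right at an SD of 1.12 and Pnpla3 farthest left at 0.234.

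All signals given below are log2 values, listed for replicates 1, 2 and 3 in that order, and their differences are log2 differences, where 1 is a doubling. Among the transcription factors, Srebf1 measured 8.04, 8.23 and 7.44 in the OB-TUDCA group, 9.13, 9.32 and 8.35 in the OB-control group, and 8.68, 8.58 and 7.56 in the N-control group. Replicate 3 was the lowest of each group, and all OB-TUDCA arrays lay below all OB-control arrays. Mlxipl measured 8.06, 7.26 and 7.81 in OB-TUDCA, 8.39, 8.21 and 7.76 in OB-control, and 8.36, 8.23 and 8.02 in N-control. The OB-TUDCA arrays all lay below the upper 2 arrays of either other group, and the groups overlapped.

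Thrsp, the most variable member, measured 10.39, 10.25 and 8.56 in OB-TUDCA, 11.48, 9.53 and 10.62 in OB-control, and 10.89, 10.26 and 8.32 in N-control. The lowest OB-TUDCA and N-control arrays were the third of each group, while the lowest OB-control array was replicate 2. Acly, the ATP citrate lyase gene, repeated this order on all 9 arrays, at 10.41, 9.76 and 9.12 in OB-TUDCA, 11.03, 9.49 and 10.58 in OB-control, and 10.61, 9.82 and 8.55 in N-control.

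Acaca, encoding the cytosolic acetyl-CoA carboxylase, measured 9.52, 8.64 and 8.06 in OB-TUDCA, 9.83, 8.08 and 9.50 in OB-control, and 9.59, 8.27 and 7.92 in N-control. Its 2 probe sets differed in level by 0.992 to 1.42 but correlated over the arrays with r = 0.98. Fasn, the fatty acid synthase, measured 10.44, 10.03 and 9.34 in OB-TUDCA, 11.70, 9.58 and 10.59 in OB-control, and 11.09, 10.01 and 9.05 in N-control. For both genes replicate 1 was the highest array of every group, and the groups overlapped throughout.

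Acacb, the mitochondrial carboxylase whose malonyl-CoA restrains fat oxidation, measured 8.03, 8.15 and 8.41 in OB-TUDCA, 9.12, 6.76 and 9.0 in OB-control, and 9.33, 8.44 and 8.09 in N-control. Me1, the malic enzyme, measured 11.72, 11.59 and 11.64 in OB-TUDCA, 11.82, 10.22 and 12.30 in OB-control, and 11.87, 11.30 and 11.19 in N-control. Both were narrow in OB-TUDCA and wide in OB-control, where replicate 2 was by far the lowest of all 9 arrays. Their SD was 0.195 (Acacb) and 0.0695 (Me1) in OB-TUDCA, 1.33 and 1.09 in OB-control, and 0.641 and 0.362 in N-control (n = 3 each, difference in spread not tested). The 2 probe sets of Me1 differed by at most 0.0989 on any array. Pnpla3 measured 5.41, 5.29 and 5.19 in OB-TUDCA, 5.51, 4.88 and 5.16 in OB-control, and 4.98, 4.61 and 5.03 in N-control. All its OB-TUDCA arrays lay above all N-control arrays.

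**Figure D2:**
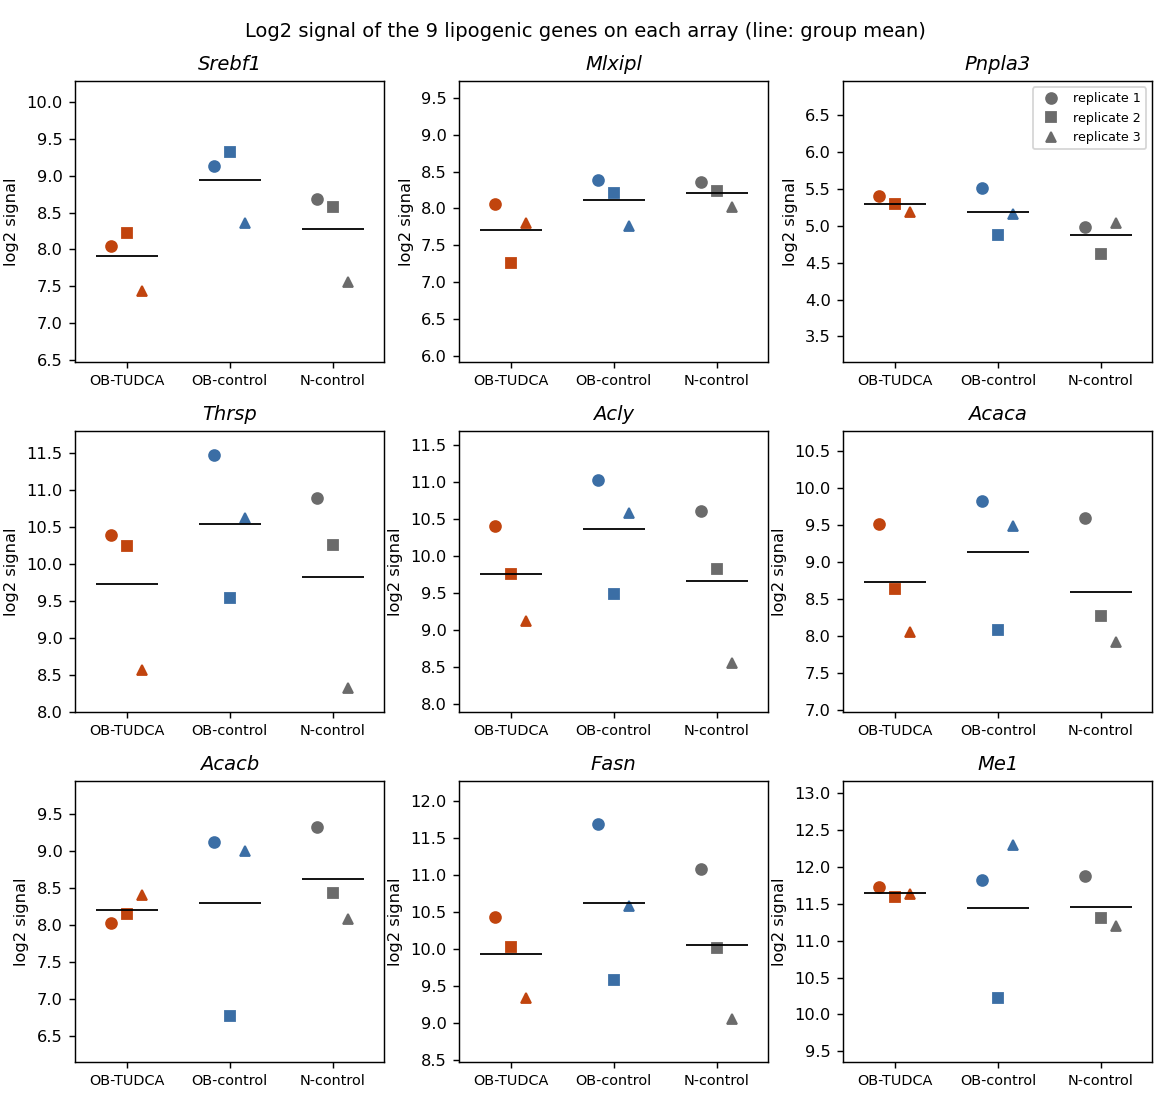
Log2 signal (y axis, the same span of 3.8 log2 units in every panel) of each of the 9 genes on the 3 arrays of the OB-TUDCA, OB-control and N-control groups (x axis). Symbols give the replicate, horizontal lines the group means. For Thrsp, Acly, Acaca and Fasn the arrays of a group stand up to 2.57 log2 units apart and the groups overlap, while the Srebf1 arrays of OB-TUDCA lie below those of OB-control.

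Set against that spread, no group difference of the 9 genes passed the test in any comparison in the limma fit of the 3 groups. With the replicate number added to the fit as a block, Srebf1 did pass in OB-TUDCA against OB-control and in OB-control against N-control, as given in the closing section. In OB-TUDCA against OB-control, which asks what the bile acid did in obese mice, limma called 0 of the 9 members at a Benjamini-Hochberg adjusted p under 0.05, where 0.301% of all genes were called. By an unadjusted p under 0.05, 1 of the 9 passed, where 11.99% of all genes did. This was Srebf1, with means of 7.90 ± 0.41 in OB-TUDCA and 8.94 ± 0.51 in OB-control (SD, n = 3 each), a difference of -1.03 (SE 0.35, 95% interval -1.81 to -0.25, limma adjusted p = 0.263). Srebf1 was also the only member whose groups did not overlap, a separation that 13.8% of all genes showed. Of the rest, Thrsp differed by -0.81 (interval -2.47 to 0.85), Fasn by -0.68 (-2.03 to 0.66), Acly by -0.61 (-1.85 to 0.64), Mlxipl by -0.41 (-0.89 to 0.08), Acaca by -0.40 (-1.66 to 0.87), Acacb by -0.10 (-1.37 to 1.18), Pnpla3 by 0.11 (-0.26 to 0.49) and Me1 by 0.20 (-0.79 to 1.19). These differences moved with single arrays. Without OB-control replicate 2 they were -1.32 for Thrsp, -1.21 for Fasn, -1.04 for Acly and -0.93 for Acaca, while without OB-control replicate 1 they were -0.15 for Fasn, -0.27 for Acly and -0.0472 for Acaca, and without OB-TUDCA replicate 3 Thrsp differed by -0.22. The median difference of the members was -0.41, against 0.01 over all genes, and 7 of the 9 means were lower. By SAM with the fold limits of the methods, recomputed here, 268 of the 19938 genes passed. Srebf1 and Thrsp, 2 of the 9 members, were among them, both lower. These limits had been tuned on these arrays and asked a smaller fold of lower than of higher probe sets. With them 1101 probe sets passed as lower and 31 as higher, so the direction of these 2 calls has little weight.

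In OB-control against N-control, which asks how obese and lean livers differed, limma called 0 of the 9 members, against 0.948% of all genes, and 0 passed an unadjusted p under 0.05, against 12.1% of all genes. No member separated the groups, against 15.3% of all genes. Srebf1 averaged 8.94 ± 0.51 in OB-control and 8.27 ± 0.62 in N-control, a difference of 0.66 (interval -0.12 to 1.44). The enzymes differed by 0.70 (Acly), 0.57 (Fasn), 0.54 (Acaca), -0.32 (Acacb) and -0.01 (Me1), each with an interval that included 0, Thrsp by 0.72, Mlxipl by -0.08 and Pnpla3 by 0.31. The members' median was 0.54, against 0.02 over all genes.

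In OB-TUDCA against N-control, limma again called 0 of 9, against 3.24% of all genes, with 2 at an unadjusted p under 0.05, against 18.5% of all genes. They were Pnpla3, at 5.30 ± 0.11 in OB-TUDCA and 4.87 ± 0.23 in N-control (0.42, interval 0.05 to 0.79, limma adjusted p = 0.214), and Mlxipl, at 7.71 ± 0.41 and 8.20 ± 0.17 (-0.49, interval -0.98 to -0.0048, limma adjusted p = 0.265). Pnpla3 alone separated the groups, as did 20.7% of all genes. The members' median was -0.09, against 0.04 over all genes. The 3 comparisons share arrays, so their values are set side by side and not compared. By the methods' t-test, adjusted in the same way, 0 members passed in each of the 3 comparisons, in which it called 0, 1 and 0 of all genes.

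Array by array, Thrsp, Acly, Acaca and Fasn varied together, and Acacb with Me1, while no pair of Srebf1, Mlxipl or Pnpla3 passed the test over all 9 arrays. Correlations were computed for all 36 pairs over the 9 arrays, each with an exact permutation test adjusted over the 36, and again within groups, on the deviations of each array from its group mean. The median r was 0.51 over the arrays and 0.58 within groups, and the within-group r was positive for 32 of 36 pairs. In the exact permutation tests 7 pairs had an adjusted p under 0.05 by Pearson's r and 6 by Spearman's rho. The 6 pairs common to both were those among Thrsp, Acly, Acaca and Fasn, with r from 0.87 to 0.96, rho from 0.97 to 1, and within-group r from 0.86 to 0.96 (adjusted exact permutation p from 9.92e-05 to 0.000628 for r). Without the 2 arrays farthest from the median of the first gene, r in these pairs still ran from 0.85 to 0.98. Leaving out 1 array at a time kept all 6 pairs under an adjusted exact permutation p of 0.05 except without OB-control replicate 1, where Thrsp and Acaca lost the call and 5 pairs were called in all.

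Acacb and Me1 were the seventh pair, with r = 0.88, rho = 0.73 and a within-group r of 0.95 (adjusted exact permutation p = 0.0247 for r and 0.102 for rho). This relation rested on few arrays. Without OB-control replicate 2 and N-control replicate 1, the 2 arrays farthest from the median, r was 0.66 (exact permutation p = 0.0990). The pair lost its call, with an adjusted p of 0.05 or more, in 3 of the 9 refits that left out 1 array, for which OB-control replicate 1, OB-control replicate 2 or N-control replicate 3 was dropped. Its within-group r fell to 0.71 once OB-control replicate 2 was dropped, against 0.95 over all arrays. The 8 pairs that joined Acacb or Me1 to the other 4 genes had r from 0.46 to 0.69, and in the exact permutation tests none had an adjusted p under 0.05. With the group means and the means of the replicate numbers both removed, r of these 8 pairs ran from 0.77 to 0.998. After that step the 2 sets of genes did not stand apart, and the change in r was not tested.

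**Figure D3:**
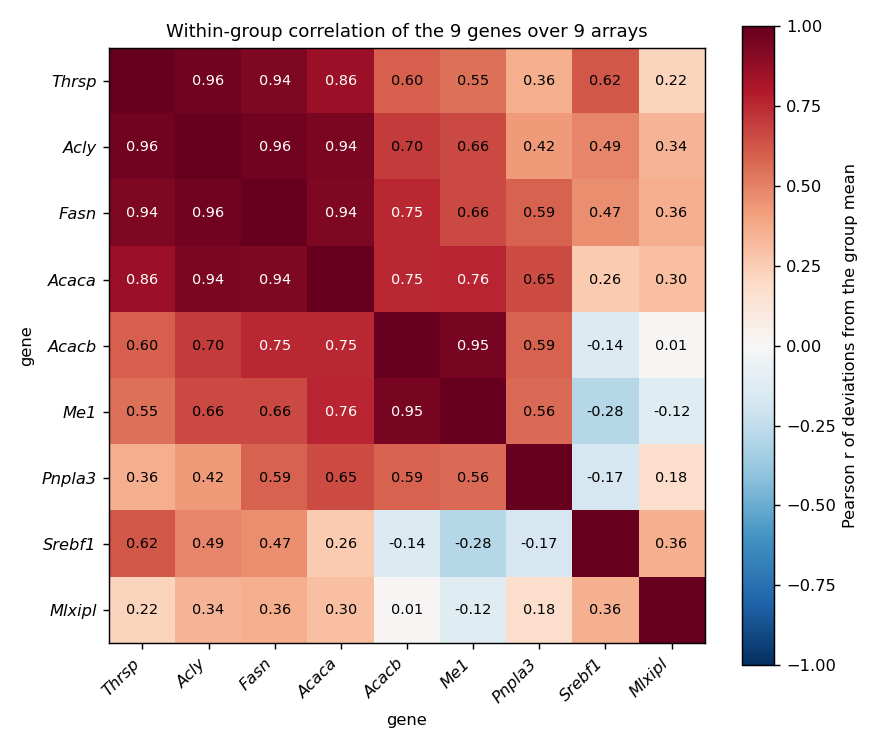
Pearson correlation (colour and number) between each pair of the 9 genes, over 9 arrays, of the deviations of log2 signal from the group mean. Thrsp, Acly, Fasn and Acaca form a block with r of at least 0.86, Acacb and Me1 pair at 0.95, and Srebf1 and Mlxipl show weaker and partly negative values.

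The transcription factors did not track their targets as closely, and how close Srebf1 appeared moved with single arrays, in both directions. Over all 9 arrays Srebf1 had r = 0.66 with Thrsp, 0.57 with Acly, 0.56 with Fasn, 0.35 with Acaca, -0.08 with Acacb and -0.29 with Me1, none with an adjusted p under 0.05 in the exact permutation tests. On OB-control replicate 2 Srebf1 was the highest of all 9 arrays, at 9.32, while Thrsp, Acly, Acaca, Acacb, Fasn and Me1 were each the lowest of their group. Without that array Srebf1 had r = 0.93 with Thrsp (adjusted exact permutation p = 0.00625), 0.90 with Fasn (0.0153), 0.84 with Acly (0.0360), 0.72 with Acaca (0.145), 0.69 with Acacb (0.164) and 0.37 with Me1 (0.493). The 3 pairs of Srebf1 with Thrsp, Fasn and Acly thus passed the threshold only in the refit without OB-control replicate 2, and 9 pairs passed in that refit in all. Without N-control replicate 3 instead, r was 0.53 with Thrsp, 0.43 with Fasn and 0.39 with Acly. Within groups these 3 pairs then had r of 0.31, 0.15 and 0.07, against 0.62, 0.47 and 0.49 over all arrays. Mlxipl had r from -0.20 to 0.38 with the enzymes and Thrsp, and Pnpla3 from 0.25 to 0.56, and in the exact permutation tests no pair of either had an adjusted p under 0.05.

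By array, 9 of 9 members lay above their group mean on OB-control replicate 1 and on N-control replicate 1, and 8 of 9 on OB-TUDCA replicate 1. At the other end, 8 of 9 lay below it on N-control replicate 3, and 7 of 9 on OB-TUDCA replicate 3 and on OB-control replicate 2. The mean log2 signal of the 9 genes was 9.11, 8.80 and 8.40 on the OB-TUDCA arrays, 9.78, 8.45 and 9.32 on the OB-control arrays, and 9.49, 8.84 and 8.19 on the N-control arrays. The labels do not say that arrays of 1 number share a litter, a day or a hybridisation. Even so, 15 of 18 best matches between groups, by the deviations of all genes, carried the same number. The exact permutation tests take the 9 arrays as exchangeable and do not allow for such sharing.

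**Figure D4:**
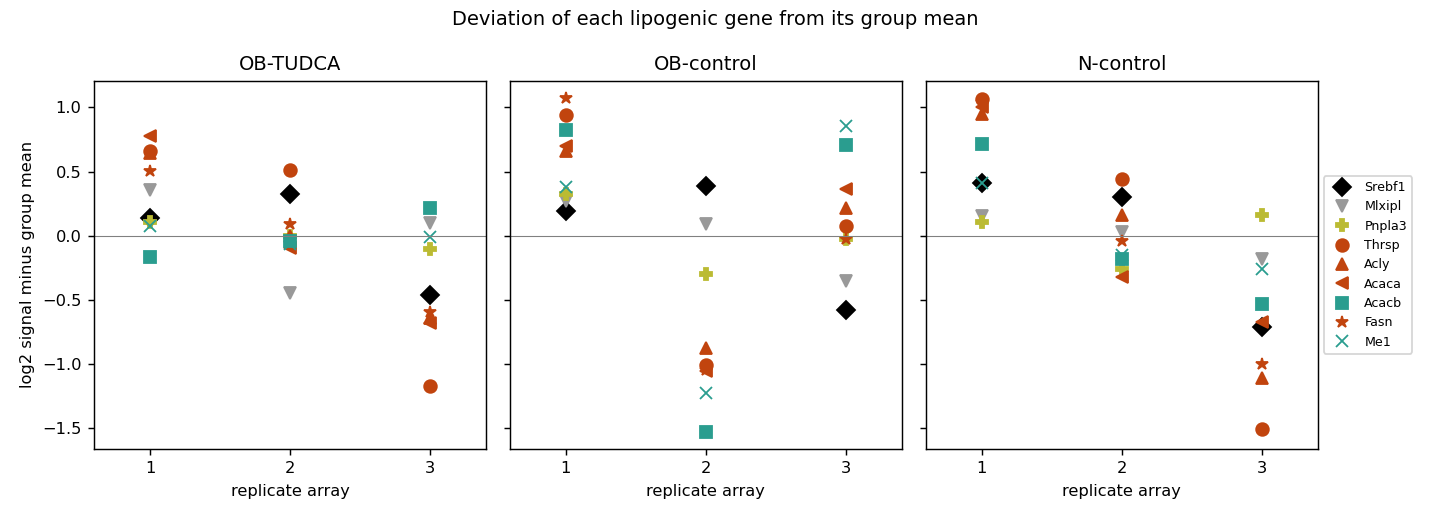
Deviation of log2 signal from the group mean (y axis) for the 9 genes (symbols) on each replicate array (x axis), for OB-TUDCA, OB-control and N-control. Most members lie above 0 on replicate 1 of each group; on OB-control replicate 2 Srebf1 lies above 0 while Acacb, Me1, Thrsp, Acly, Acaca and Fasn lie below.

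Other genes of the pathway varied with the same arrays. Likeness was measured as Pearson's r, over the 9 arrays, with the mean log2 signal of the 9 members, and given as a description, since all genes share the same 9 arrays. Among the 1677 genes that spanned at least 1 log2 unit, the most alike was Elovl6 (r = 0.97, within groups 0.98), which elongates palmitate. It measured 10.60, 9.64 and 8.90 in OB-TUDCA, 11.19, 9.24 and 10.82 in OB-control, and 10.65, 9.46 and 8.59 in N-control, which is the order of Acly and Thrsp in every group. Next came Mvd (0.91), an enzyme of the mevalonate pathway, Pstpip2 (0.88), Pklr (0.87), the liver pyruvate kinase, A4gnt (0.81), Gpam (0.80), which starts glycerolipid synthesis, Ssxb10 (0.78), Gask1a (0.78), Olfr1274 (0.75) and Pkhd1 (0.73). Ssxb10 and Olfr1274 averaged 2.36 and 2.91 log2 units, within the third of genes of lowest signal (below 3.98). The most opposite were Serpina11 (-0.80), Slc25a33 (-0.75), Itih3 (-0.75), Irf2bp2 (-0.74) and Sdc4 (-0.74).

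By list, 4 of the 16 other lipogenic enzymes measured had r above 0.7 (Elovl6, Pklr, Gpam and Elovl5), against 1.69% of all other genes. The lowest over the 9 arrays were Agpat2 (0.12) and Dgat2 (0.20), at -0.23 and 0.65 within groups. Both act at later, esterifying steps, while Gpam, which starts glycerolipid synthesis, had r = 0.80. Of the 13 cholesterol synthesis genes, targets of the sister factor Srebf2, Mvd alone had r above 0.7, with Dhcr7 next (0.63) and Cyp51 (0.26) and Mvk (0.34) lowest. Within groups 6 of these 13, and likewise 6 of the 16 other lipogenic enzymes, had r above 0.7, against 4.09% of all other genes. Among 12 regulators of Srebf1 and Mlxipl none had r above 0.7. Mid1ip1, a paralogue of Thrsp, was highest at 0.65, followed by Insig1 (0.38), which retains SREBPs in the endoplasmic reticulum. Mlx, the partner of the Mlxipl protein, was lowest at -0.71 and Rxra next at -0.59. Within groups again none had r above 0.7, Mid1ip1 was highest at 0.66, and Nr1h3 (-0.93) and Rxra (-0.85) were lowest. Of the 5 genes that insulin represses, Igfbp1 (-0.65) and Pck1 (-0.59) ran opposite to the members, and Ppargc1a (0.50) and G6pc (0.08) did not. The 12 fasting genes, targets of Ppara, ran from -0.48 (Angptl4) and -0.44 (Creb3l3) to -0.06 (Ehhadh) and 0.01 (Fgf21). No gene of these 5 lists passed an adjusted p under 0.05 by limma in any of the 3 comparisons. By an unadjusted p under 0.05 in OB-TUDCA against N-control, 8 of the 12 fasting genes were higher and 6 of the 13 cholesterol synthesis genes lower, where 2068 of all 19938 genes were higher and 1624 lower. The same counts were 4 and 3 in OB-control against N-control, where 1306 of all genes were higher and 1115 lower. In OB-TUDCA against OB-control they were 0 and 1, where 1249 of all genes were higher and 1141 lower.

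**Figure D5:**
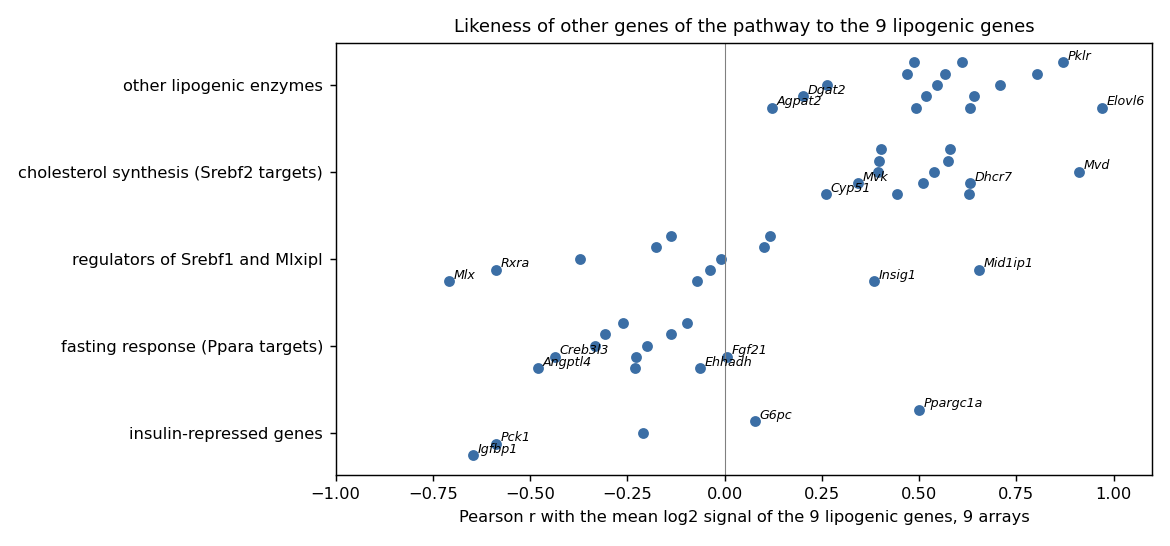
Pearson correlation (x axis) of each gene of 5 pathway lists (rows) with the mean log2 signal of the 9 lipogenic genes over 9 arrays. Each point is a gene, the 2 highest and 2 lowest of a list are named, and vertical offsets within a row only separate the points. Elovl6 (0.97), Mvd (0.91) and Pklr (0.87) lie farthest right and Mlx (-0.71) farthest left.

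Markers of other cells and array-wide measures were set beside this variation. The 10 hepatocyte markers, led by Alb, Trf and Cyp2e1, averaged 12.29 to 12.45 on every array, so all 9 arrays carried a liver profile, and this narrow average had r = -0.79 with the members' mean. Taken 1 by 1, these markers had r from -0.61 (Fgb) to 0.59 (Apoc3), with a median of -0.16. The 8 Kupffer cell markers, led by Vsig4, Clec4f and Cd5l, averaged 6.87, 7.42 and 7.46 in OB-TUDCA, 6.76, 7.02 and 7.12 in OB-control, and 6.82, 7.09 and 7.06 in N-control, with r = -0.62. Replicate 1, the array with the highest mean of the members in each group, had the lowest Kupffer cell average of each group. The array median had r = 0.68, at 4.5 to 4.6. The part of these measures in the members' variation was not tested. The 21 pancreatic acinar markers, led by Cela1, Clps and Cela2a, averaged 9.86 on N-control replicate 2 and 3.87 to 4.25 on the other 8 arrays. On that array the deviations of the 9 members from their group means averaged -0.00356, with 4 above and 5 below. They ran from -0.33 (Acaca) to 0.44 (Thrsp). With the acinar average regressed out the exact permutation tests still called 7 pairs. The averages of the 5 adipocyte, 5 sinusoidal endothelial, 6 stellate cell and 4 bile duct markers had r of 0.02, 0.04, 0.04 and -0.24 with the members' mean, and were led by Retn, Plin1 and Adig, by Lyve1, Kdr and Stab2, by Rgs5, Reln and Lrat, and by Sox9, Krt19 and Krt7. Single markers were called by limma only in OB-TUDCA against N-control, where Lyve1 was higher (2.44, adjusted p = 0.0110), Kdr lower (-1.17, adjusted p = 0.0218) and the hepatocyte marker Hnf4a higher (0.58, adjusted p = 0.0451), and the part of such changes in the members' values was not tested.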

How the data were processed

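Log2 signals were deposited by the authors as 1 table of 9 arrays, made per the labels by RMA in Affymetrix Expression Console, which corrects background, normalises quantiles and summarises probes to probe sets. RMA sets all arrays to 1 distribution, so that a change shared by most genes is lost. Of 35556 probe sets, 21789 carried exactly 1 gene symbol (1621 several, 12146 none) and were averaged to 19938 genes. Groups came from the labels. The members and gene lists were chosen with earlier results of these data known. Genes named beyond the members were the 10 most and 5 least like the members' mean among those spanning 1 log2 unit, and the 2 highest and 2 lowest of each pathway list. For the regulators, the lowest within groups were named as well. Of each cell type list the 3 brightest were named. Differences were tested in limma 3.58.1 (R 4.3.3), 3 groups in 1 fit without covariates, with Benjamini-Hochberg adjustment over all genes. Correlations used exact two-sided permutations of the arrays (numpy 2.4.6, scipy 1.17.1). With 3 arrays against 3, an exact permutation test cannot go below 0.1. Both procedures were tested on simulated data. Alternatives covered normalization, filters, designs, covariates, probe sets and arrays left out. No depth applies to arrays, whose number limits the precision.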

Additional observations from a re-analysis of the deposited data

How the results depend on the processing

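The pair counts, and the median r after removal of the replicate means, were alternatives chosen after seeing the data. Of the 492 alternative values of the 27 group differences of the members, 466 kept their direction and their side of the threshold, 24 changed sign and 2 passed the threshold anew. Replicate numbers were not treated as pairing, since deviations of same-numbered arrays correlated with r from -0.08 to 0.21, although 15 of 18 best matches between groups carried the same number. With the replicate block Srebf1 passed the threshold in OB-TUDCA against OB-control (-1.03, limma adjusted p = 0.0266) and in OB-control against N-control (0.66, limma adjusted p = 0.0410). The share of all genes called in that setting is not given here, so these calls have no background beside them. With the replicate block the median within-group r of the 36 pairs was 0.22, with Mlxipl at -0.75 to -0.50 against the enzymes and Thrsp. It was 0.86 to 0.97 among Thrsp, Acly, Acaca and Fasn and 0.77 to 0.998 for the 8 pairs that joined Acacb or Me1 to them, so that these 4 genes did not stand apart from Acacb and Me1 in that setting. SAM with the fold limits, which were laxer for lower calls, called 2 members and 268 of the 19938 genes in OB-TUDCA against OB-control.

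Each difference that changed sign was smaller than its standard error, and the cause was not tested. Leaving out 1 array moved OB-TUDCA against OB-control between -0.86 and 0.31 for Acacb, -0.41 and 0.63 for Me1, and -0.0371 and 0.28 for Pnpla3. It moved OB-control against N-control between -0.73 and 0.44 for Acacb, -0.44 and 0.60 for Me1, -0.22 and 0.095 for Mlxipl, and -0.0296 and 1.26 for Thrsp. It moved OB-TUDCA against N-control between -0.24 and 0.65 for Acaca, -0.46 and 0.57 for Acly, -0.61 and 0.41 for Fasn, and -0.84 and 0.50 for Thrsp. Me1 in OB-control against N-control was 0.0236 after quantile normalization once more and 0.0107 by its second probe set. Thrsp in OB-TUDCA against N-control was 0.000957 after quantile normalization once more and 0.11 with the acinar average as a covariate.

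Genes called in OB-TUDCA against OB-control (60) numbered 97 after quantile normalization once more, 131 without the third of genes of lowest signal, 0 with only the groups compared, 0 with the acinar covariate and 0 by the ordinary t-test (1418 at an unadjusted p under 0.05), and 0 to 135 with 1 array left out (0 without OB-TUDCA replicate 2 or 3, OB-control replicate 1 or N-control replicate 2). In OB-control against N-control (189) they numbered 65 with only the groups compared, 72 with the acinar covariate and 1 by the ordinary t-test, and 60 to 266 with 1 array left out. In OB-TUDCA against N-control (646) they numbered 345, 329 and 0 in the same order, and 193 to 788 with 1 array left out. The median r of the pairs ran from 0.41 (without OB-control replicate 1) to 0.63 (without OB-control replicate 2), and within groups from 0.48 to 0.68. Pairs called numbered 5 to 9 with 1 array left out and 6 or 7 in other settings.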
